A study of Mus musculus with 18 samples.

Results

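Of 27849 regions with an ATAC-seq peak in lung endothelial cells (ECs), 561 (2.01%) had a peak among the top-ranked peaks of young uninjured mice, mostly lacked one there in young mice after bleomycin, and had one there in aged uninjured mice. They were chosen by measured values. Each of the 18 peak lists was reduced to its 21050 peaks with the highest -log10 p, which is the size of the smallest list, and overlapping peaks of all lists were merged into regions present in at least 2 lists. A member region had a kept peak in at least 4 of 5 Young Sham, at most 1 of 4 Young Bleo and at least 3 of 4 Aged Sham mice. No criterion used the peaks of the 5 Aged Bleo mice, and their values are given beside the others. Their lists did enter the merging, and the smallest list, that of Aged Bleo 4, set the number of peaks kept. Because the peaks of 3 groups chose the members, differences between those groups at the members describe the choice, and nothing is read from them.

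Each list came from 1 mouse. All mice, female and male, were FVB animals with a Col1α1-GFP reporter, in which collagen-producing cells are green, and lungs were taken at day 30. Young mice were 2 months and aged mice 18 months old. Sham mice received PBS, and Bleo mice a single intratracheal dose of bleomycin, an agent that injures the lung and causes fibrosis, at about 1 U/kg. ECs were sorted as CD31+ cells after removal of cells with CD45 (leukocytes), EpCAM (epithelium) or GFP (collagen-producing cells), and Omni-ATAC-seq was run on them. In this assay the transposase Tn5 cuts accessible DNA, so that a peak marks open chromatin. The sort holds ECs of every vessel type, so a weaker peak in a group cannot be told apart from fewer cells that carry it.

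Open regions away from gene starts are often enhancers, to which transcription factors bind. In ECs these include ERG and other ETS factors, forkhead, GATA and SOX proteins, many of which keep endothelial genes on. The lung capillary bed is made of general capillary cells, which renew it, and of aerocytes, the ECs of gas exchange.

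Endothelial identity was visible in every list. Cdh5, Tie1, Kdr, Erg and Cldn5 had a promoter peak in 18 of 18 lists and Pecam1 in 17, whereas Emcn had one in 7. None of the 5 leukocyte and none of the 5 epithelial marker promoters carried a peak in any list. The fibroblast gene Pdgfra and the smooth muscle gene Myh11 had a promoter peak in all 18 lists, while the other 4 markers of either type had none. Lymphatic marker promoters with a peak numbered 1 to 3 of 4 per list. The lists held 21050 to 40883 peaks on chromosomes 1 to 19, X and Y. Sequencing lanes and groups were only partly crossed: lane 8 held all Young Sham mice and Young Bleo 4, lane 7 held Young Bleo 1 to 3 and Aged Sham 1 to 3, and lane 6 held Aged Sham 4 and all Aged Bleo mice. Young Sham and Aged Bleo mice were thus each confined to 1 lane. A comparison with another group within that lane rests on 1 mouse, and the part of the lane was not tested.

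Examples of the DNA behind these peaks are the following 5 windows of 200 bp around the strongest summit, chosen among named members that hold the ERG core, and read from the mm10 plus strand. The core, CAGGAAG, which 28.7% of members hold, is printed in capitals, as CTTCCTG where it lies on the minus strand. Kdr encodes the main VEGF receptor and Ocln a tight junction protein. Rspo3, a secreted amplifier of Wnt signaling, is shown because its member had the full pattern (5 of 5 Young Sham, 0 of 4 Young Bleo, 4 of 4 Aged Sham). The Ralgapa2 and Sash1 windows are shown for the opposite states of Aged Bleo mice, with a peak in 5 of 5 and in 0 of 5. They lie at chr5:75962239-75962438, chr13:100575997-100576196, chr10:29508293-29508492, chr2:146443410-146443609 and chr10:8758058-8758257.
Kdr: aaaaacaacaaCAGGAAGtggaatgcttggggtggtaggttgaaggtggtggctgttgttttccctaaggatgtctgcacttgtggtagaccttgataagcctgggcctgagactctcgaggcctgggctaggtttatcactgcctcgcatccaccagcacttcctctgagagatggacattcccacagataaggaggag
Ocln: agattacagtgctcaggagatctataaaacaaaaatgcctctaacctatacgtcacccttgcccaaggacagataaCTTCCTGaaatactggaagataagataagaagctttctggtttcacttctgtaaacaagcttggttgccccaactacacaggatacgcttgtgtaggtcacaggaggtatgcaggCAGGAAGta
Rspo3: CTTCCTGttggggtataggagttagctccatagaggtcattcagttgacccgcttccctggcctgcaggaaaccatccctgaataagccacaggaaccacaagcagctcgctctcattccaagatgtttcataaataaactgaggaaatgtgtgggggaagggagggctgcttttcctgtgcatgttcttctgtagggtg
Ralgapa2: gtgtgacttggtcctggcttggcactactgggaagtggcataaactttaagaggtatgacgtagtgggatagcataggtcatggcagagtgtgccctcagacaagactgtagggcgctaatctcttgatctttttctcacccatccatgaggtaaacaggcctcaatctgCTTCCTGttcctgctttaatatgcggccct
Sash1: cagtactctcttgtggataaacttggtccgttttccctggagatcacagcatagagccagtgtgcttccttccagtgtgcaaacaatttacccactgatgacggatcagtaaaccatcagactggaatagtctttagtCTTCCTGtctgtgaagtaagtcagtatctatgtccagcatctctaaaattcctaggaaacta

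The 561 members separated the 3 groups that chose them by construction, and the spread within groups differed. Kept peaks covered 517, 525, 533, 541 and 489 members in Young Sham 1 to 5, or 92.9% ± 3.57 (SD, n = 5). In Aged Sham 1 to 4 they covered 515, 489, 508 and 448 members, or 87.3% ± 5.36 (n = 4). In Young Bleo 1 to 4 they covered 55, 57, 43 and 186 members, or 15.2% ± 12 (n = 4). Young Bleo 4, the only Young Bleo mouse of lane 8, stood apart, and it supplied the single tolerated Young Bleo peak in 186 of the 341 members that had one (54.5%). Aged Sham 4, the only Aged Sham mouse of lane 6, was the sample without a peak in 113 of the 284 members with 3 of 4 Aged Sham peaks (39.8%). Within lane 7 alone, the kept peaks of Aged Sham 1 to 3 covered 489 to 515 members and those of Young Bleo 1 to 3 covered 43 to 57. Young Bleo mice had a peak less often than Young Sham mice at a two-sided Fisher's exact p of at most 0.05 in 447 members. Over all regions the share called in that direction was 3.19%, but the rule used this contrast, so nothing is read from the count.

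**Figure D1:**
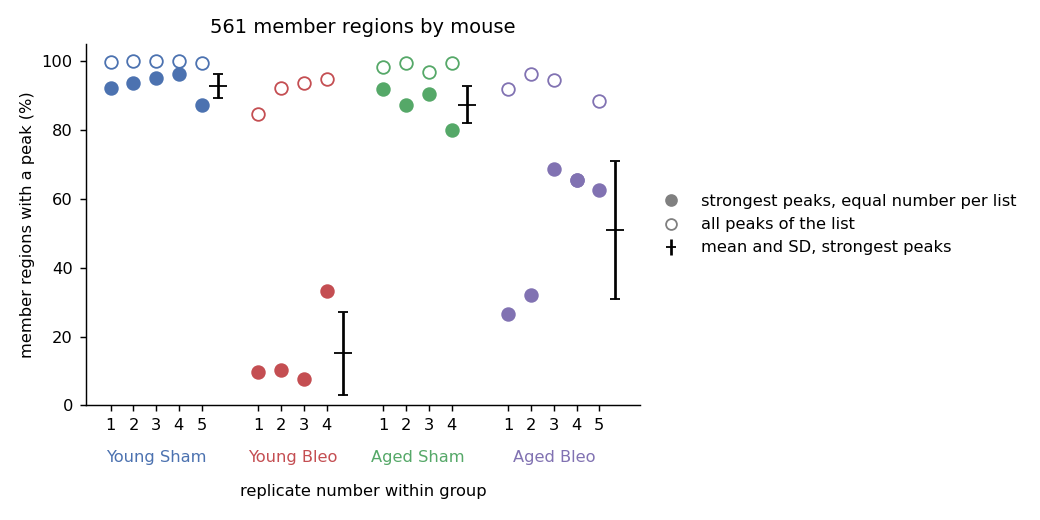
Percentage of the 561 member regions (vertical axis) with a peak in each mouse, by group and replicate number (horizontal axis). Filled points use the 21050 strongest peaks of each list, open points all peaks of the list, and bars give the mean and SD of the filled points. Young Bleo 1 to 3 lie between 7.66% and 10.2% on the filled points and between 84.8% and 93.6% on the open points, and for Aged Bleo 4, whose list is the smallest, both points coincide.

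Most members without a kept peak in Young Bleo mice still had a peak further down the list. In their full lists, Young Bleo 1 to 4 still had a peak at 476, 517, 525 and 532 of the 561 members, or 91.4% ± 4.47 (n = 4), against 99.9% ± 0.232 in Young Sham (n = 5) and 98.5% ± 1.32 in Aged Sham (n = 4). The rule itself placed most sham peaks inside and most Young Bleo peaks outside rank 21050, so the ranks describe the choice, and they come from lists of 25793 to 39420 peaks. Ranked from the strongest, member peaks had a median rank of 16635 ± 280 in Young Sham, 17102 ± 994 in Aged Sham and 24227 ± 1245 in Young Bleo (mean ± SD of the medians of each list). Their median fold enrichment over the local background was 10.3 ± 0.996 in Young Sham, 8.72 ± 0.692 in Aged Sham and 7.09 ± 0.612 in Young Bleo, although fold enrichments are not scaled between lists. The members were thus of middling to low strength even in sham mice, with a median within-list percentile of 18.3 over the 9 sham lists, against 59.8 for the 16559 sham-open regions kept in at least 3 Young Bleo mice. Some stood close to the limit: in Young Sham 1 to 5, 75 to 100 members lay within 2000 ranks inside it, and in Young Bleo 1 to 4, 103 to 126 lay within 2000 ranks outside it. Others stood far from it, with 219 to 264 members over 5000 ranks inside in Young Sham and 102 to 224 over 5000 ranks outside in Young Bleo. At the edges of the rule, 247 regions differed from members by a peak in exactly 2 Aged Sham mice, 412 by a peak in exactly 2 Young Bleo mice and 152 by a peak in exactly 3 Young Sham mice.

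The identity of the members depended on the number of peaks kept. With 15000 peaks per list the same rule gave 331 regions, of which 31 overlapped the 561 members (5.53% of the members and 9.37% of the 331). With all peaks of every list it gave 261 regions, of which 18 overlapped them (3.21% and 6.90%). Ranking by fold enrichment gave 494 regions, with 266 shared (47.4% and 53.8%). The members are therefore the regions that crossed this one limit, and the following values describe that set.

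Mice that did not choose the regions gave the same order of groups at smaller distances. Each of the 13 Young Sham, Young Bleo and Aged Sham mice was left out in turn, the regions were rebuilt and chosen from the others, and the left-out list was then read. The re-chosen sets held 603 to 841 regions, with 560 or 561 of the 561 members among them. The choice from fewer mice was thus looser, and its part in the smaller distances was not tested. Of the re-chosen regions, 84.2, 83.2, 86.0, 89.7 and 76.3% had a kept peak in left-out Young Sham 1 to 5, or 83.9% ± 4.91 (n = 5). The same rule without its Young Sham criterion gave 61.9% ± 3.26. In left-out Aged Sham 1 to 4 the share was 78.6, 69.4, 78.5 and 61.3%, or 72% ± 8.31 (n = 4), against 57.4% ± 6.99 without the Aged Sham criterion. In left-out Young Bleo 1 to 4 it was 31.9, 31.2, 31.1 and 55.4%, or 37.4% ± 12 (n = 4), against 95% ± 0.732 without the Young Bleo criterion. Relative to the rule without the group's criterion, the left-out share moved in the direction of the rule. This held in 5 of 5 Young Sham, 4 of 4 Aged Sham and 4 of 4 Young Bleo mice. The sets without the criterion were unlike, with 1103 to 1105, 1159 and 17532 to 17536 regions. Without a Young Bleo criterion, regions had a median within-list percentile of 57.4 over the sham lists, against 18.3 for members. The part of peak strength was not tested. Over all regions, the left-out lists had a kept peak at 73.7 to 74.4% in Young Sham and 74.1 to 74.4% in Young Bleo. Every Young Sham share lay above this and every Young Bleo share below. In Aged Sham 1 to 4 the share over all regions was 73.1, 73.2, 72.6 and 74.7%. Re-chosen regions lay above it at 78.6 and 78.5% and below it at 69.4 and 61.3%. The Aged Sham mean of 72% was thus no higher than over all regions. Young Bleo and Aged Sham did not overlap, the nearest values being 55.4% in Young Bleo 4 and 61.3% in Aged Sham 4. Within lane 7 they were 31.1 to 31.9% and 69.4 to 78.6%. List length differed there too, at 34086 to 39420 peaks in Young Bleo 1 to 3 and 25793 to 32220 in Aged Sham 1 to 3. The last kept peak had a -log10 p of 17.5 to 22.7 and of 10.4 to 15.7 in these lists. The part of list length was not tested.

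**Figure D2:**
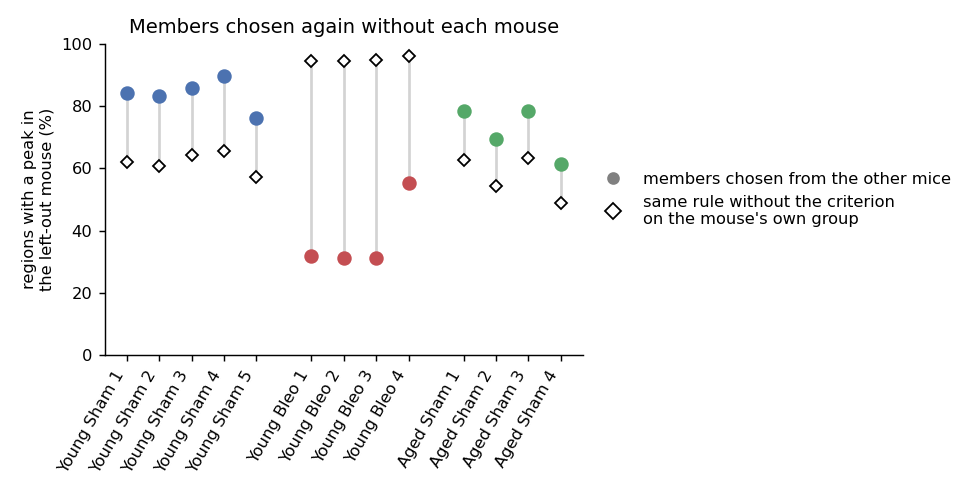
Percentage of regions with a kept peak in the mouse that was left out (vertical axis), for each of the 13 mice that the rule uses (horizontal axis). Coloured points are members chosen from the other mice and diamonds are regions chosen without the criterion on the left-out mouse's group. The points of Young Sham and Aged Sham lie above their diamonds and those of Young Bleo lie below, between 31.1% and 55.4%.

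The question that remains for these regions is where aged mice stood after injury. Aged Bleo mice were divided: a kept peak was present at 149 (26.6%), 180 (32.1%), 385 (68.6%), 367 (65.4%) and 351 (62.6%) members in Aged Bleo 1 to 5, or 51.1% ± 20 (n = 5). Over all 27849 regions the same mice had a kept peak at 73.2% ± 1.13, a share that the equal number of kept peaks holds nearly constant. In this share of kept peaks, Aged Bleo 1 and 2 were low and Aged Bleo 3 to 5 were high. The gap was over 30 percentage points, with no mouse between. In the presence of any peak the order was another: in the full lists, Aged Bleo 1 to 5 had a peak at 515 (91.8%), 541 (96.4%), 530 (94.5%), 367 (65.4%) and 496 (88.4%) members, with Aged Bleo 2 the highest. The lists of Aged Bleo 1 and 2 were also the longest of their group, with 37595 and 40883 peaks, against 29049, 21050 and 26886 in Aged Bleo 3 to 5. All 5 came from lane 6, and the part of list length in the split was not tested. In the full lists, the median rank of member peaks was 23711, 23239, 18500, 16431 and 18459. The list of Aged Bleo 4 ends at the limit itself. Member peaks had a median -log10 p of 15.7, 20, 15.4, 11 and 12.9 in Aged Bleo 1 to 5. The last kept peak had 19.1, 23.3, 12.1, 4.81 and 10.6. Median fold enrichment was 7.23, 8.73, 7.92, 6.32 and 7. By these medians, member peaks were not weaker in both Aged Bleo 1 and 2, although neither measure is scaled between lists. The split is thus one of rank within each list.

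Region by region, Aged Bleo mice formed no single state. A kept peak was found in 0, 1, 2, 3, 4 and 5 of the 5 mice at 31, 98, 140, 158, 90 and 44 members. The most frequent pattern, at 99 members (17.6%), was a peak in Aged Bleo 3, 4 and 5 and none in Aged Bleo 1 and 2. A peak in Aged Bleo 1 and 2 and none in 3 to 5 was found at 8 members (1.43%). Against Aged Sham, in two-sided Fisher's exact tests, 61 members (10.9%) had a peak less often in Aged Bleo at a p of at most 0.05, where the share called in that direction over all regions was 0.937%. Compared with Young Bleo, 72 members (12.8%) had a peak more often in Aged Bleo, where the share over all regions was 0.689%. The rule fixed the Aged Sham and Young Bleo side of these contrasts at the members, so both counts are descriptions. Such designs can reach a p of 0.00794 at the smallest, and none of the 27849 regions passed Benjamini-Hochberg adjustment in either contrast, in which 412 and 485 regions in both directions had a Fisher's exact p of at most 0.05. In rank, every Aged Bleo list stood above every Young Bleo list at 41 members (7.31%, against 2.23% of all regions) and the reverse held at 0 (against 3.01%). Every Aged Sham list stood above every Aged Bleo list at 49 members (8.73%, against 4.15%) and the reverse held at 3 (0.535%, against 3.69%). The rule also fixed 1 side of each of these rank counts, so nothing is read from their distance to the shares over all regions.

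The share in Aged Bleo mice followed the number of Aged Sham mice with a peak. It was 57.0% ± 22.7 at the 277 members with 4 of 4 Aged Sham peaks and 45.2% ± 17.6 at the 284 with 3 of 4. Among regions with the same Young Sham and Young Bleo criteria, it was 31.6% ± 10.5 at the 247 with 2 Aged Sham peaks and 19.9% ± 6.11 at the 351 with 0 or 1, here called also outside the limit in Aged Sham. Each of the 5 Aged Bleo mice was higher at members with 4 of 4 than at members with 3 of 4 Aged Sham peaks, and higher at these than at regions also outside the limit in Aged Sham. It was also 45.0% ± 23.3 at the 220 members without a Young Bleo peak, 55% ± 18.1 at the 341 with 1, and 64.1% ± 11.3 at the 412 regions with 2. Over the 16559 kept regions it was 96.8% ± 0.955. Peak strength in sham mice moved with these sets as well, from a median percentile of 7.42 at regions also outside the limit in Aged Sham to 16.1 and 21.8 at members with 3 and 4 Aged Sham peaks, and its part in the Aged Bleo shares was not tested.

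**Figure D3:**
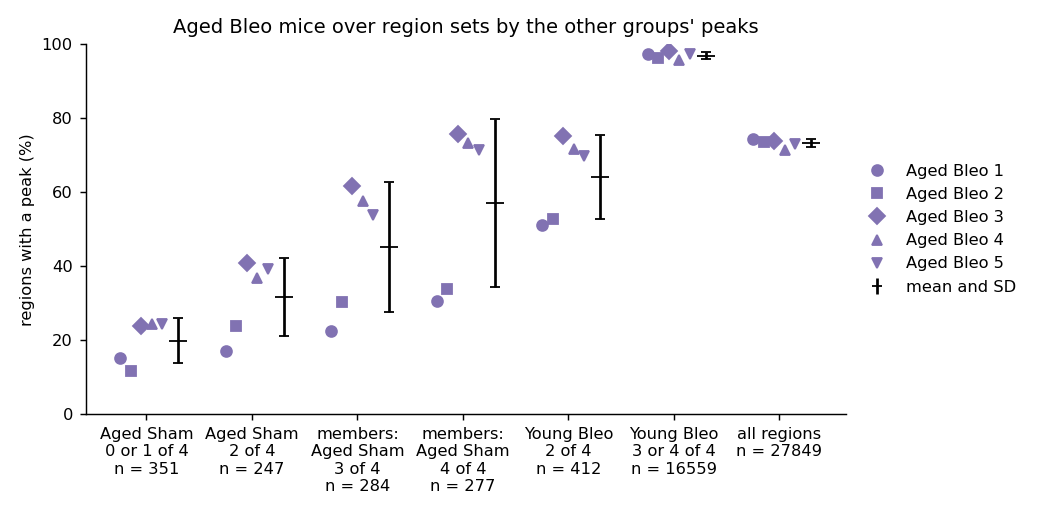
Percentage of regions with a kept peak in each Aged Bleo mouse (symbols; vertical axis) for sets of regions defined by the peaks of the other groups (horizontal axis, with the number of regions), with the mean and SD over the 5 mice. Sets other than all regions share the Young Sham criterion, the Aged Sham sets also share the Young Bleo criterion, and the Young Bleo sets the Aged Sham criterion. The mean rises from 19.9% to 57.0% with the number of Aged Sham peaks, and Aged Bleo 1 and 2 lie below the others in all sets except the kept regions and all regions.

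Most members lay away from gene starts. By their midpoint, 247 (44.0%) were in introns, 216 (38.5%) between genes, 67 (11.9%, Wilson 95% interval 9.51 to 14.9, counting error only) in promoters, 16 in exons and 15 in UTRs. Promoters, which began 1000 bp before a RefSeq TSS and ended 100 bp after it, held 32.1% of all regions, 47.5% of the kept regions and 7.69% of those also outside the limit in Aged Sham. The median distance to the nearest TSS was 21415 bp, and 78 members (13.9%) were over 100 kb away, against 6089 bp and 8.01% over all regions. Outside promoters these values were 26021 bp and 15.8% for members and 19113 bp and 11.8% for all regions. They were of ordinary width, with a median of 509 bp against 561 bp over all regions. Their median GC content around the summit was 50.5%, the same as regions also outside the limit in Aged Sham, against 56% over all regions. Outside promoters it was 49.5% for members and 52.5% for all regions. Members were spread over the genome, at 1.16% to 2.88% of the regions of each autosome and 1.90% on X, with none among 24 regions on Y. Their nearest genes numbered 535, of which 26 had 2 members and none had 3, and 77 members (13.7%) lay within 100 kb of another.

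DNA motifs were counted in the 200 bp around each summit on both strands. The ERG core CAGGAAG was found at 161 members (28.7%, Wilson 95% interval 25.1 to 32.6), 25.6% of regions also outside the limit in Aged Sham, 16.7% of kept regions and 19.2% of all regions. As promoters hold this core less often, the comparison outside promoters is closer: 30.6% of members, 26.5% of regions also outside the limit in Aged Sham, 23.3% of kept regions and 23.7% of all regions. The other ETS core searched, CCGGAAG, went the other way, at 25 members (4.46%) and 8.99% of all regions, and outside promoters at 3.24% of members, 4.94% of regions also outside the limit in Aged Sham, 6.75% of kept regions and 5.02% of all regions. The forkhead motif GTAAACA was found at 61 members and outside promoters at 11.9% of members, 9.26% of regions also outside the limit in Aged Sham, 5.12% of kept regions and 5.36% of all regions. The GATA motif AGATAAG was found at 55 members and outside promoters at 10.9%, 5.86%, 3.75% and 4.36% of the same sets. The TEAD motif ACATTCC, read by partners of the Hippo pathway, was found at 30 members and outside promoters at 5.87%, 3.40%, 3.32% and 3.48%. The AP-1 motif TGANTCA was found outside promoters at 9.11% of members and 10.4% of all regions, and the SOX motif AACAATG at 5.06% and 7.47%. The core of CTCF, a protein that organises chromatin loops, was found at 3 members (0.535%), 2.85% of regions also outside the limit in Aged Sham, 1.40% of kept regions and 2.44% of all regions. No test was made of these shares, regions are not independent, and a match of letters is not a bound site.

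**Figure D4:**
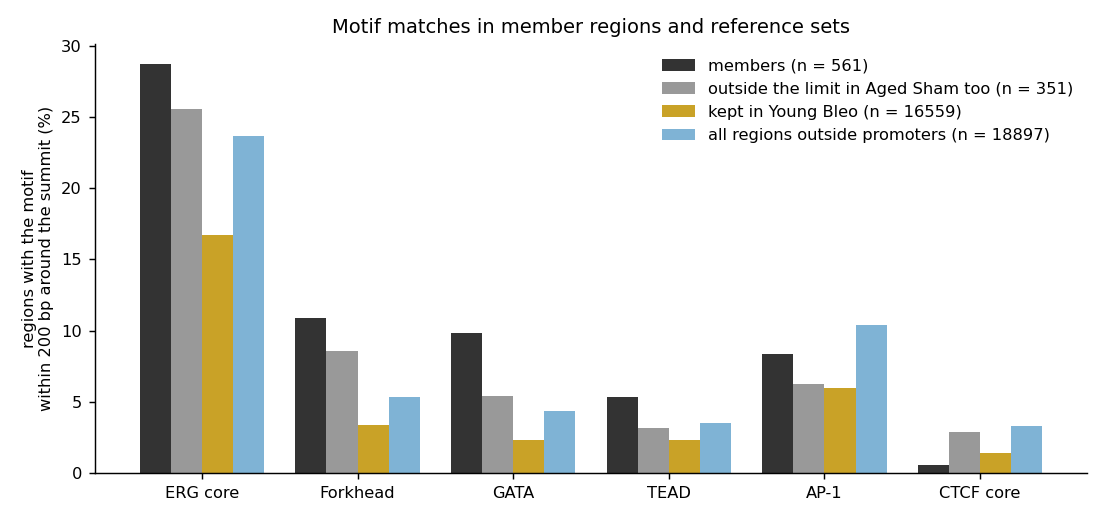
Percentage of regions (vertical axis) with a motif match within the 200 bp around the summit, for 6 motifs (horizontal axis). Bars are the 561 members, the 351 regions also outside the limit in Aged Sham, the 16559 regions kept in Young Bleo and the 18897 regions outside promoters. Only the last set leaves out promoters. Members have the highest bar for the ERG core (28.7%), forkhead (10.9%), GATA (9.80%) and TEAD (5.35%) and the lowest for the CTCF core (0.535%).

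Members near genes with known roles in ECs were read from 15 gene lists, whose 276 genes were nearest to 1071 regions. Of these, 32 regions (2.99%) at 30 genes were members, against 2.01% of all regions. Aerocyte markers held 6 members among 48 regions (12.5%), each at a different gene: Apln, Chst1, Fibin, Nckap5, Prx and Rprml. General capillary markers held 0 of 49, arterial and venous markers 0 of 62, ETS factors 0 of 55 and basement membrane genes 0 of 51. The general capillary list has 9 genes and leaves out Cd36. The paper counts CD36 among human general capillary markers, and an intron of Cd36 holds a member. Other endothelial transcription factors held 7 of 174 (4.02%), vasoactive receptors and enzymes 4 of 89 (4.49%), angiogenic receptors and ligands 4 of 103 (3.88%), and inflammation and interferon genes 3 of 62 (4.84%). Genes of the cell cycle and senescence held 2 of 47, the TGF-beta and BMP pathway 2 of 88, and cytoskeleton and migration genes 2 of 116. Junction genes held 1 of 63, Notch pathway genes 1 of 61 and AP-1 factors 1 of 60. A nearest gene is a label of position, the expression of which was not analysed here.

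At the 6 aerocyte members, 66.7% of Aged Bleo values were kept peaks, against 51.1% at all members and 73.2% at all regions, with no test made. In the other lists with members this share went from 20% for cytoskeleton and migration (2 members) to 80% for the Notch pathway and junctions (1 member each). The member chr2:92678122-92678837, 77363 bp from the TSS of Chst1, a sulfotransferase, had peaks ranked 13688, 18762, 18681, 15723 and 20020 in Young Sham 1 to 5 and 12983, 13139, 9272 and 16350 in Aged Sham 1 to 4. In Young Bleo 1 to 4 they ranked 27232, 25174, 33486 and 23304, and in Aged Bleo 1 to 5 they ranked 18395, 11318, 13390, 13797 and 16048. The rule put the sham ranks inside and the Young Bleo ranks outside the limit at this region, and the Aged Bleo ranks, which it did not use, lay within the range of the sham mice. At the promoter of Prx (chr7:27499050-27499400), which encodes periaxin, ranks were 14022 to 19088 in Young Sham, 12470 to 24142 in Aged Sham and 11797 to 22099 in Aged Bleo. Young Bleo 1 had no peak there, and Young Bleo 2 to 4 ranked 31524, 29547 and 24794. The member in the UTR of Rprml (chr11:103649206-103650055) had a kept peak in 4 of 5 Young Sham, 0 of 4 Young Bleo, 4 of 4 Aged Sham and 4 of 5 Aged Bleo mice. In an intron of Nckap5 (chr1:126617158-126618034) the kept peak was present in 3 of 5 Aged Bleo mice, and 109250 bp upstream of Fibin (chr2:110471950-110472536) in 2 of 5. Upstream of Apln, whose peptide acts on the apelin receptor, the member chrX:48054096-48054918 had a kept peak in 2 of 5 Aged Bleo mice, with ranks of 17181 to 20769 in Young Sham, 16685 to 23329 in Young Bleo, 16091 to 19440 in Aged Sham and 20726 to 24021 in Aged Bleo.

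Of the angiogenic receptors and ligands, Kdr is described here, and its member lay in an intron, 16078 bp downstream of the TSS (chr5:75962041-75962712). Its peak ranked 14881, 18300, 16561, 13613 and 12953 in Young Sham 1 to 5, and 11552, 15596, 8114 and 17030 in Aged Sham 1 to 4. It ranked 33080, 26423, 25485 and 18367 in Young Bleo 1 to 4, so that only Young Bleo 4 stayed within the limit, just behind the weakest sham rank of 18300. In Aged Bleo 1 to 5 it ranked 33389, 17168, 18739, 11996 and 11950, inside the limit in 4 of 5. These ranks overlapped those of sham and of Young Bleo mice.

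Transcription factor genes near members included Foxo3, which restrains vessel growth, and Epas1, a hypoxia-inducible factor abundant in endothelium. The Foxo3 intron region (chr10:42251158-42251691) had the full pattern, with ranks of 11292 to 19392 in Young Sham, 21131 to 24889 in Young Bleo, 10545 to 18840 in Aged Sham and 19307 to 30830 in Aged Bleo, 3 of which lay within the limit. The region assigned to Epas1 (chr17:86551532-86552398) lay 201899 bp upstream, in an intron of Prkce, and had a kept peak in 1 of 4 Young Bleo, 3 of 4 Aged Sham and 4 of 5 Aged Bleo mice. The Foxp1 and Tcf4 members were intronic, and that of Sox7, a factor of vascular development, lay 21099 bp upstream. Kept peaks at Foxp1, Tcf4 and Sox7 were each found in 5 of 5 Young Sham, 1 of 4 Young Bleo and 4 of 4 Aged Sham mice, and in 2, 3 and 3 of 5 Aged Bleo mice. Tal1 and Foxf1, a factor needed for lung capillaries, each had 1 lower-ranking member, with a kept peak in 1 and in 3 of 5 Aged Bleo mice.

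Genes of signaling, junctions and the cytoskeleton gave single regions. Maml2 encodes a coactivator of Notch signaling. Its intron region (chr9:13592706-13593175) ranked 9631 to 15895 in Young Sham, 13012 to 15587 in Aged Sham and 17795 to 33848 in Young Bleo, with a kept peak in 4 of 5 Aged Bleo mice. The Ocln region (chr13:100575873-100576445) had a kept peak in 1 of 4 Young Bleo and 4 of 5 Aged Bleo mice, and Aged Bleo 5 had no peak there at all. The promoter of Cdkn2a (chr4:89282019-89282504), an inhibitor of the cell cycle and a senescence gene, ranked 14053, 15309, 14516, 14430 and 16379 in Young Sham and 12174, 15965, 9770 and 16850 in Aged Sham. It ranked 21608, 24178, 24433 and 17747 in Young Bleo and 33311, 23025, 12069, 11190 and 14052 in Aged Bleo, so that Aged Bleo 1 and 2 lay outside and Aged Bleo 3 to 5 inside the limit. Regions near Irf2, an interferon regulatory factor, and Fos, an AP-1 subunit, had a kept peak in 3 of 5 Aged Bleo mice each. Those assigned to Dock4, an activator of Rac, and Adgrl2, an adhesion receptor, had one in 2 of 5 each. The Adgrl2 region lay between genes, 591944 bp from the TSS.

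The 60 members with the full pattern, 5 of 5, 0 of 4 and 4 of 4, had a kept peak in 51.7% ± 29.2 of Aged Bleo lists, averaged over regions and mice (n = 5), with 15, 25, 75, 73.3 and 70% in Aged Bleo 1 to 5. The 12 with the strongest sham peaks had as nearest genes Gm38414, Snx10, Plekhm3, Hapln1, Mbd2, Rspo3, Il6ra, 1700055C04Rik, Slc30a8, Sqor, 1700028K03Rik and Foxo3. Some lay far from that TSS, at 388705 bp for Sqor, 155696 bp for Hapln1 and 85102 bp for Snx10. Of the 12, Mbd2 had a kept peak in 5 of 5 Aged Bleo mice, and Snx10, 1700055C04Rik and Sqor in 4. Il6ra and 1700028K03Rik had one in 1, while the other 6 had one in 3. The Rspo3 intron region (chr10:29508121-29508599) ranked 10865, 12229, 12296, 12701 and 11120 in Young Sham, 15278, 18794, 11985 and 15728 in Aged Sham, and 25474, 32038, 29903 and 22728 in Young Bleo. Aged Bleo 1 had no peak there, Aged Bleo 2 ranked 31093, and Aged Bleo 3 to 5 ranked 18101, 14524 and 18317. The region near Gm38414, in an intron of Prag1 (chr8:36145139-36145629), was the strongest of the 12, at 7723 to 11277 in Young Sham, 6898 to 17043 in Aged Sham and 25927 to 35013 in Young Bleo. It too divided Aged Bleo mice, at 29987 and 33790 in Aged Bleo 1 and 2 and 12762, 9697 and 14054 in 3 to 5. The Il6ra intron region (chr3:89872184-89872991), at a subunit of the interleukin-6 receptor, ranked 11281 to 15362 in Young Sham, 12224 to 15245 in Aged Sham and 24151 to 32992 in Young Bleo, and only Aged Bleo 5, at 17784, was inside the limit.

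**Figure D5:**
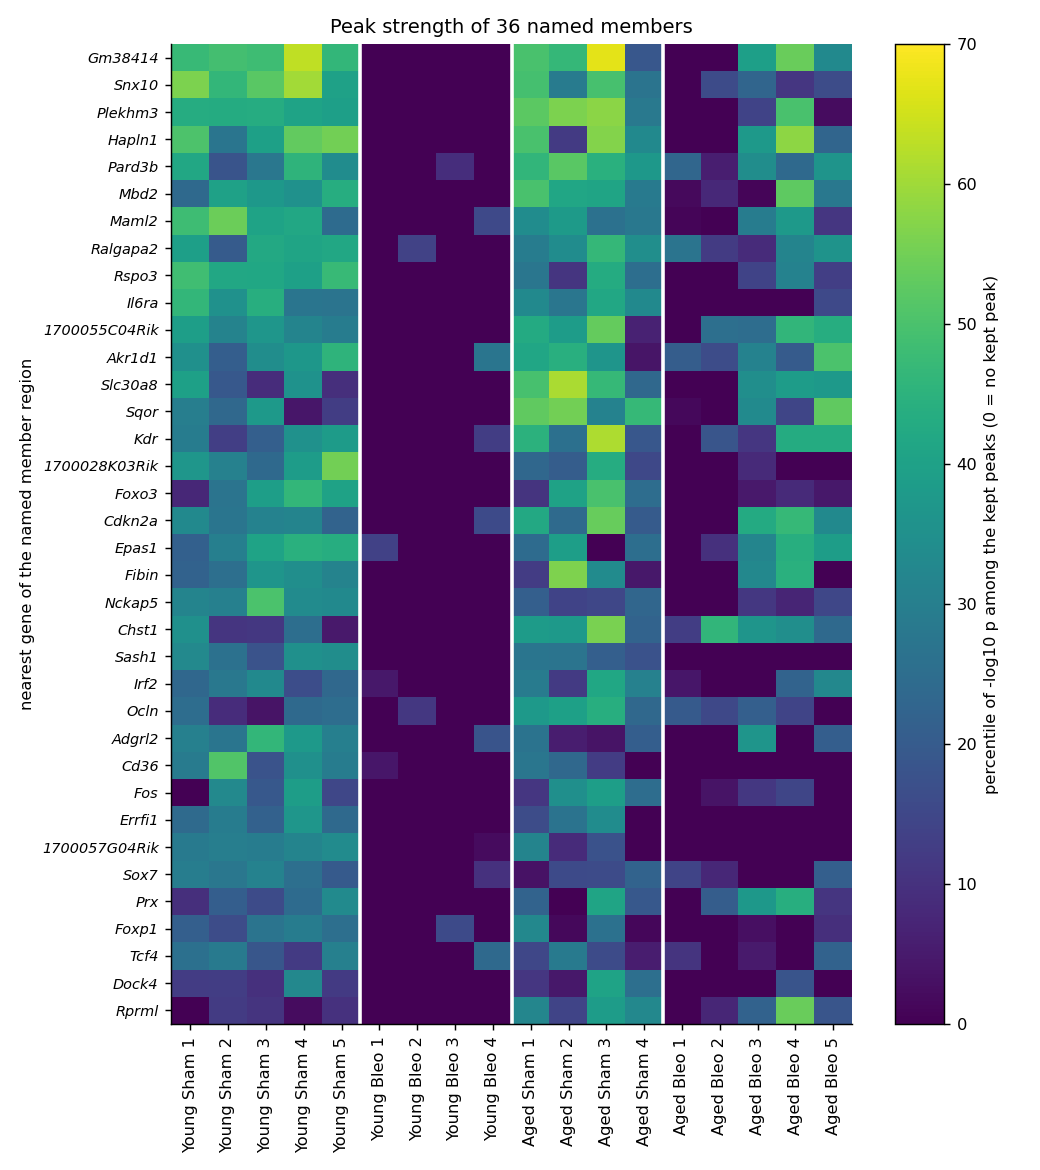
Peak strength of 36 named members (rows, by nearest gene, strongest in sham mice at the top) in each mouse (columns), as the percentile of -log10 p among the 21050 kept peaks of the list, with 0 where there was no kept peak. The colour scale ends at 70. Young Bleo columns are almost all at 0, as the rule requires, and Aged Bleo 1 and 2 are at 0 in more rows than Aged Bleo 3 to 5.

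The extremes of the Aged Bleo group were the 44 members with a kept peak in all 5 mice and the 31 with one in none. The strongest of the first kind lay near Pard3b, a cell polarity gene, Mbd2, a reader of methylated DNA, Ralgapa2, a subunit of a Ral inhibitor, and Akr1d1, a steroid reductase. At the Ralgapa2 intron region (chr2:146443323-146443901), Aged Bleo 1 to 5 ranked 15361, 18507, 19213, 14395 and 13469, against 12166 to 16848 in Young Sham and 11217 to 14869 in Aged Sham. Young Bleo mice ranked 18141 to 23316 there, overlapping Aged Bleo. The strongest of the second kind lay near Sash1, a signaling scaffold, Cd36, a fatty acid receptor of capillaries, Errfi1, a brake on EGF receptor signaling, and 1700057G04Rik. At the Sash1 intron region (chr10:8757863-8758385), Young Sham mice ranked 13649 to 17253 and Aged Sham mice 15320 to 17327. Aged Bleo 1 to 3 ranked 27698, 26496 and 25105 and Aged Bleo 4 and 5 had no peak, while Young Bleo 1 had none and the others ranked 32031, 36360 and 24897. The region was named for its lack of kept peaks in Aged Bleo mice, so its separation from the sham mice describes that choice. At Cd36 (chr5:17883311-17883860), Aged Bleo 1 to 3 ranked 26806, 32029 and 24633 and Aged Bleo 4 and 5 had no peak, and 1 of 4 Aged Sham mice also lay outside the limit at 24587.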

How the data were processed

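Lung ECs of 18 mice were profiled by Omni-ATAC-seq, with 1 list per mouse. Reads were mapped to mm10 by the authors with BWA 0.5.9, and duplicates were removed (Picard MarkDuplicates 1.67). MACS2 2.0.10 then called the peaks of each library at an FDR of 1%. Deposited fold enrichments are ratios of summit fragments to local background within a library. The deposited -log10 p and -log10 q are those of MACS2 in that library, and the deposited score is a rescaled -log10 q, which was not used. The deposited summit offset gives the position of the summit. None is scaled between libraries, so peaks were ranked within lists and samples compared by presence of a kept peak. Read totals are not in the lists used here, so depth is unknown and intervals cover counting error only. No pair of lists within a group shared more than 0.203% of its peaks by identical start and end.

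Nuclear peaks (chromosomes 1 to 19, X, Y) were ranked by -log10 p, the 21050 highest per list were kept, and regions were merged at an overlap of at least 1 bp. Conditions and replicate numbers came from the labels and lanes from the names of the lists. Same-numbered mice of Aged Bleo and Aged Sham were not pairs. Regions were annotated by midpoint with 45756 RefSeq transcripts of GRCm38.p6, the assembly of mm10, from which sequences were also read. Motifs (20) were searched by their letters. Two-sided Fisher's exact tests were run over all regions and adjusted by Benjamini-Hochberg, and limma 3.58.1 in R 4.3.3 on within-list percentiles was an alternative. Python 3.11.15, numpy 2.4.6, scipy 1.17.1 and pysam 0.24.0 were used, and the steps were tested on simulated data. Named regions are the 12 with the full pattern and the strongest sham peaks, up to 20 at genes of the lists, and the 4 strongest with a kept peak in 5 and in 0 Aged Bleo mice; Tal1, Foxf1 and Apln were added after their values were seen, and 2 named regions are not reported here. The members, gene lists and motifs were chosen with earlier results of these data known. Alternatives are given in the closing section.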

Additional observations from a re-analysis of the deposited data

Results flagged for a closer look

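Per-mouse values over the members were screened for a mouse far from the others of its group, in 19 sets of 4 or 5 mice, of which 4 had one. Chance gives about 1 in 20. The screen compares mice within a group, and for Young Sham, Young Bleo and Aged Sham the same peaks chose the members, except where a mouse was left out. Young Bleo 4 stood above Young Bleo 1 to 3 in the share of members with a kept peak, at 33.2%, and again in the share of re-chosen regions when it was left out, at 55.4%. It was the only Young Bleo mouse in lane 8. Aged Bleo 4 was the lowest of its group in the share of members with any peak in the full list, at 65.4%, and its list of 21050 peaks is the smallest, so that its full and kept lists are the same. Aged Sham 2 was the highest of its group in the median fold enrichment of member peaks, at 9.75.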

How the results depend on the processing

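The number of members was 261 with all peaks of every list and 331 with 15000 per list, and between 450 and 569 under the other 5 settings. Leaving out each mouse gave 561 to 841, the highest without Young Bleo 4. The Aged Bleo share was 36.6% to 51.4% under the alternative settings and 46.1% to 57.2% with a mouse left out, always within 1 SD of 51.1%. Regions called between Aged Bleo and Aged Sham numbered 412, from 289 to 577 under other settings and from 65 to 413 with a mouse left out, where fewer mice allow fewer patterns to reach the threshold. limma on within-list percentiles called 134 after Benjamini-Hochberg adjustment (4408 at an unadjusted p of at most 0.05). Of these, 56 were lower and 78 higher in Aged Bleo. Members made up 10 of them, all lower, where the rule fixed the Aged Sham side. With a replicate block limma called 0 (3565 unadjusted). The mice share only a number, and deviations of same-numbered mice correlated at -0.203, 0.291, 0.0857 and -0.172. Between Aged Bleo and Young Bleo, 485 regions became 1215 with all peaks, 322 with 15000 and 784 where peaks had to cover 50% of the region, and 93 to 485 with a mouse left out. Between Young Bleo and Young Sham, 1906 became 2813 with all peaks, 1212 with 15000 peaks and 653 to 1907 with a mouse left out. The cause of these shifts was not tested.

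The share in promoters was 5.36% with all peaks, 8.70% when ranked by fold enrichment and 19.6% with 2000 bp on either side of a TSS. The share with the ERG core was 42.4% in whole regions, which are longer than 200 bp (33.6% of all regions), and 25.3% to 32.4% under the other 3 settings. Of the 38 named regions, 25 remained members when ranked by fold enrichment, 8 with 15000 peaks per list and 1 with all peaks. Kept peaks rest on a ranking within each list, so a region without one may be open.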
